A study of Mus musculus with 11 samples.

Results

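Gpnmb/Spp1/Ctsk-rich macrophages were picked from 11 single-cell RNA libraries of dissociated mouse lung by their unique molecular identifiers (UMIs, each standing for 1 captured transcript). A barcode was a member when it held 1000 to 30000 UMIs with at most 14% from mitochondrial genes, at least 5 UMIs of Lyz2, at least 1 of Cd68, and at least 10 of Gpnmb, Spp1 and Ctsk together. This rule kept 2526 cells, which were 3.65% of the 69266 cells that passed the UMI and mitochondrial limits (filtered cells) and 21.7% of the 11634 that also met the Lyz2 and Cd68 minimums (macrophage-gated cells). The rule used measured counts, so the high levels of these 5 genes are a description of the choice and not a result.

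The 11 libraries comprised 1 from wild type lung (+/+, WT), 3 from p21 heterozygotes (+/-, p21Het), 5 from p21 mTert lung (+/mTert, p21mTert) and 2 from p21 mTertCD lung (+/mTertCD, p21mTertCD). The p21 protein is encoded by Cdkn1a, mTert is the mouse telomerase reverse transcriptase, and by the series' title mTert is induced in p21-positive cells to act against emphysema and loss of capillaries. By the allele notation every group other than WT kept 1 unaltered p21 copy. The labels do not spell out CD, how the alleles were built, the sex of the mice, or whether each library was a separate animal, so p-values measure the spread between libraries, which may be technical. The age field gives 18 months for all libraries except p21Het replicate 1 (19 months) and p21mTert replicate 1 (20 months), while the titles give 18 months throughout.

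GPNMB is a transmembrane glycoprotein of lysosome-rich cells, SPP1 (osteopontin) is a secreted matrix phosphoprotein, and cathepsin K, the product of Ctsk, is a collagen-degrading protease best known from osteoclasts. Macrophages loaded with lipid in fat, arterial plaques and injured tissue are known for a shared programme that joins these genes with Trem2, a lipid-sensing receptor, and with fatty acid-binding proteins and lysosomal hydrolases. In lung, alveolar macrophages occupy the airspace, take up surfactant lipid and depend on the nuclear receptor PPARG, whereas interstitial macrophages lie in the tissue and carry complement C1q and MHC class II.

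The libraries held 42038434 to 85988955 UMIs in 5686 to 10525 barcodes. p21Het replicate 2 and p21mTertCD replicate 1 stood apart: they held 2.73% and 0.717% B cells among filtered cells, against 6.89 to 25.2% in the other 9, and together gave 1240 of the 2526 members (49.1%). Where a result rests on them, its value without them is given if the other libraries allow one. WT, p21Het replicate 1 and p21mTert replicate 1 were deposited first and the other 8 libraries later. Library pairs shared 4 to 20 filtered barcodes, and 1 member barcode was shared in all. A doublet score marked 294 members (11.6%), against 5.61% of filtered cells.

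The members carried a median of 43 UMIs of Gpnmb, Spp1 and Ctsk together (quartiles 23 and 79, highest 1451). All 3 genes were seen in 2022 members (80.0%), and 1694 members held 10 or more UMIs of Ctsk alone, 1373 of Spp1 alone and 1033 of Gpnmb alone. Ctsk had at least 1 UMI in 97.2%, Spp1 in 92.3% and Gpnmb in 89.1% of members. In 7039 B cells, which should lack these genes, the shares were 1.48%, 1.55% and 0.682%, at a median of 4043 UMIs per cell against 19606 in members. Trem2, which the rule did not use, was seen in 73.0% of members and 0.199% of B cells, and also in 67.5% of the C1q-rich macrophages and 30.5% of the alveolar-marker macrophages defined below.

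Just inside it, 103 macrophage-gated cells with 10 or 11 UMIs of the 3 genes had a mean of 4.23 Ctsk, 4.17 Spp1 and 2.07 Gpnmb UMIs. Just outside, 107 cells with 8 or 9 UMIs had 3.19, 3.46 and 1.92. The cells on either side also resembled each other in alveolar markers: 88.3% of those inside and 90.7% of those outside held 5 or more UMIs of Ear1, Fabp1, Krt79, Cidec, Plet1, Marco and Siglecf together, which is called the alveolar marker sum below.

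By their markers the members were mostly alveolar macrophages. The alveolar marker sum was 5 or more in 2387 members (94.5%), with a median of 47 UMIs, and the median of C1qa, C1qb and C1qc together was 0. Read the other way, 77.6% of the 3078 macrophage-gated cells with that alveolar marker sum were members. Of the 21 genes of the lipid-associated programme in the files, 20 averaged at least 10 CPM (a gene's UMIs per 1000000 of the members' summed UMIs in a library, the level used throughout), and Cst7 lay below, at 0.834. Apoe, an apolipoprotein that lipid-laden tissue macrophages usually carry, had a UMI in only 29.3% of members. The lineage markers were thus those of alveolar macrophages, so the cells are named here by the genes of the rule and not as lipid-associated macrophages.

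The members were set beside 691 macrophage-gated cells under the threshold with an alveolar marker sum of 5 or more (alveolar-marker cells below the gate) and 1386 with at least 10 C1q UMIs and an alveolar marker sum under 2 (C1q-rich cells). These differences describe the choice of cells and were not tested. Ratios are log2 values with 5 added to each level, and a gene is listed when it was at least 2-fold apart in every library.

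**Figure D1:**
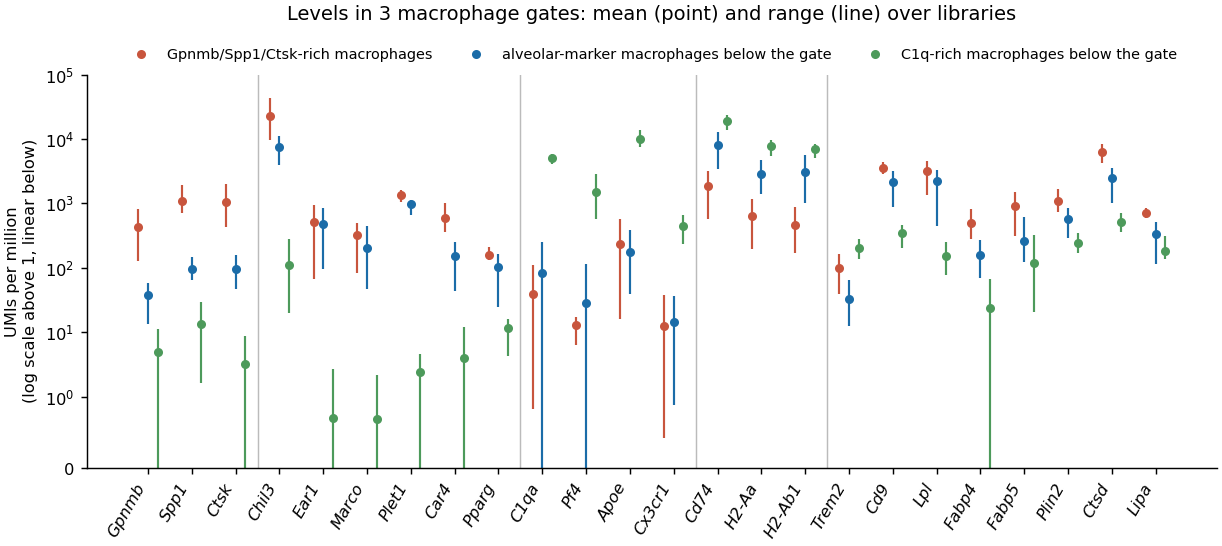
Levels of 24 genes in CPM (vertical axis, log scale above 1) in the members (red), alveolar-marker cells below the gate (blue) and C1q-rich cells (green); points are means and lines the range over 11 libraries. The members share Chil3, Ear1, Marco and Plet1 with the blue cells and lie far below the green cells for C1qa and Pf4.

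Against alveolar-marker cells below the gate, 5 of 8376 genes were higher in every library (0.0597%). Of these, 3 are the genes of the rule. Spp1 averaged 1082 CPM in members and 95.5 below the gate, Gpnmb 437 and 37.5, and Ctsk 1061 and 96.0. The other two were Cd93, a C-type lectin-like receptor, with 117 against 13.9 (median log2 ratio 1.81, lowest 1.04), and Fabp5, a fatty acid-binding protein, with 926 against 256 (median 1.69, lowest 1.11).

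In the opposite direction 29 genes were lower in every library (0.346%). They included Xcr1 (0.674 against 80.3 CPM), Cadm1 and Runx3, which mark or act in conventional dendritic cells, the cystatin gene Cst3 (553 against 6755) and the class II gene H2-Eb1 (350 against 2481). Markers of dendritic cells and of alveolar type II cells were also higher below the gate, which was not so for every list of other cells' markers. The summed level of 9 dendritic cell markers had a median over libraries of 279.8 there (68.1 to 1147), against 23.3 in members (10.6 to 42.2), with all 9 seen in both. The 8 alveolar type II cell markers summed to a median of 7327 (397 to 39763) there and 349.8 in members (248 to 1619), and all 8 were seen in both; the part of these cells in the 29 genes was not tested. Plet1, 1 of the genes of the alveolar marker sum, is itself expressed by some dendritic cells. With Plet1 left out of the sum, an alternative added after seeing the data, p21Het replicate 2 and p21mTertCD replicate 1 held 16 cells each below the gate, under the minimum of 20, and 9 libraries were left. In all 9, 4 of 7999 genes were at least 2-fold higher (Spp1, Ctsk, Gpnmb and the cystine transporter gene Slc7a11; 0.05%) and 0 lower (0.0%). With Plet1 kept in the sum, the same 9 libraries gave 6 of 8295 genes higher (0.0723%) and 29 lower (0.35%). Cd93 and Fabp5 were among those 6 and missed the 2-fold rule without Plet1, where both were still higher in 9 of 9 libraries (lowest log2 ratios 0.70 and 0.79).

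Against C1q-rich cells, the members differed in lineage genes: 475 of 8447 genes were higher (5.62%) and 398 lower (4.71%) in every library. Chil3, which encodes a chitinase-like secretory protein of alveolar macrophages, averaged 22915 CPM in members (9691 to 44000 over libraries) and 109 in C1q-rich cells (median log2 ratio 8.01). Plet1 stood at 1339 against 2.44, the proton pump subunit gene Atp6v0d2 at 1116 against 4.65 and the scavenger receptor gene Marco at 324 against 0.681. Of 17 alveolar macrophage markers compared, 16 were at least 2-fold higher in every library and 0 lower; 7 of the 17 belong to the alveolar marker sum that chose the cells, and 9 of the other 10 were higher. Mrc1, the mannose receptor gene, was the exception, at 1153 against 846. In the other direction C1qa averaged 38.7 against 5038 and the chemokine gene Pf4 12.8 against 1522. All 15 interstitial macrophage markers were lower in every library, among them the 3 C1q genes that chose the C1q-rich cells and 12 others.

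The lipid-associated programme without Spp1 and Gpnmb, which the rule used, had 6 of 18 genes at least 2-fold higher than in C1q-rich cells in every library, beside 5.62% of all genes. Against alveolar-marker cells below the gate 1 of the 18, Fabp5, met that rule, beside 0.0597% of all 8376 genes. By any amount 12 were higher in every library, beside 7.94% of all genes (list median 0.74, beside 0.07). Without Plet1 in the sum 11 of the 18 were higher in all 9 libraries (median 0.65), as were 240 of 7999 genes, and 0 by 2-fold. With Plet1 kept, the same 9 libraries gave 12 of the 18 (median 0.73) and 696 of 8295 genes. The 1 gene of the 18 at least 2-fold lower than in C1q-rich cells in every library was Apoe. It averaged 231 in members (15.9 to 572 over libraries) and 10031 in C1q-rich cells. By any amount 3 of the 18 were lower than in C1q-rich cells in every library, beside 16.8% of all genes. Lpl, which releases fatty acids from triglyceride, stood at 3143 against 150 in C1q-rich cells and 2264 in alveolar-marker cells below the gate. The tetraspanin gene Cd9 stood at 3514 against 353 and 2176, Fabp4 at 503 against 23.5 and 158, and the lipid droplet coat gene Plin2 at 1073 against 245 and 565. Trem2 followed these genes against alveolar-marker cells below the gate but not against C1q-rich cells. It averaged 101 in members (39.5 to 165), 33.1 in alveolar-marker cells below the gate and 200.4 in C1q-rich cells.

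A wider list of 24 genes of lipid uptake and sterol handling had 10 that were 2-fold higher than in C1q-rich cells in every library and 0 lower, beside the same 5.62% and 4.71%. They included Abcg1, a cholesterol exporter (1171 against 47.3), Olr1, a receptor for oxidised lipoprotein (406 against 5.2), Mgll, a monoglyceride lipase (336 against 4.80), and Soat1, which esterifies cholesterol (351 against 93.5). Against alveolar-marker cells below the gate only Fabp5 of these 24 met the same rule, with a list median of 0.56 beside 0.07 over all 8376 genes. Over the 9 libraries left when Plet1 was dropped from the sum the list median was 0.19, against 0.46 with Plet1 kept, and Fabp5 did not meet the rule. Ch25h, which makes 25-hydroxycholesterol, was higher in all 11 libraries without reaching 2-fold in each (185 against 46.7).

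Most lysosomal genes were higher in members than in alveolar-marker cells below the gate. Of 31 genes compared, 24 were higher by any amount in all 11 libraries, as were 7.94% of all 8376 genes, and 0 reached 2-fold in every one; the list median was 0.68, beside 0.07 over all genes. Without Plet1 in the sum the list median over 9 libraries was 0.28, against 0.56 with it. Of the 31, 18 were then higher in all 9, as were 240 of 7999 genes. Ctsd, the lysosomal aspartic protease, averaged 6206 against 2437, Ctsl 511 against 186, Lgmn 348 against 138 and Lipa, the acid lipase, 703 against 337. Against C1q-rich cells 6 were 2-fold higher in every library, among them Ctsd (506 there) and 3 subunit genes of the proton pump (Atp6v1b2, Atp6v0d1 and Atp6v1c1), and 2 were lower, beside the 5.62% and 4.71% of all genes given above. Median UMIs per cell were 15159.5 to 23702 in members and 11388 to 20826 below the gate, and the part of depth and of other cells' RNA in these ratios was not tested.

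Cathepsin K and Atp6v0d2 are best known from osteoclasts. Of the 15 osteoclast-type genes on the list besides Ctsk, 8 averaged at least 10 CPM in members: Atp6v0d2, Acp5, Tnfrsf11a and the transcription factor genes Nfatc1 (62.8), Mitf (69.8), Tfec (124), Tfeb (35.0) and Tfe3 (58.3). Acp5, which encodes tartrate-resistant acid phosphatase, averaged 222 (96.1 to 409) and was higher than in alveolar-marker cells below the gate in all 11 libraries (63.6). The other 7 were low: Mmp9 averaged 2.14, Car2 0.993, Oscar 0.888, the integrin gene Itgb3 0.773, the fusion genes Dcstamp 0.512 and Ocstamp 0.0887, and the calcitonin receptor gene Calcr was at 0 in every library. Tnfrsf11a, the receptor for the osteoclast factor RANKL, averaged 17.7 in members, 19.1 below the gate and 53.4 in C1q-rich cells.

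MHC class II genes were low in members. All 7 were lower by any amount than in either comparison gate in all 11 libraries, as were 5.98% of all genes against alveolar-marker cells below the gate and 16.8% against C1q-rich cells, with a list median of -1.91 against alveolar-marker cells below the gate and -3.21 against C1q-rich cells. Cd74, the invariant chain gene, averaged 1878 in members, 7968 below the gate and 18999.7 in C1q-rich cells. The dendritic cell markers given above moved with the first of these differences. With Plet1 left out of the sum the list median against alveolar-marker cells was -0.48 over 9 libraries, beside -0.0062 over all 7999 genes. Of the 7 genes, 6 were lower in each library, as were 177 of all 7999 genes, and 0 by 2-fold. The same libraries with Plet1 kept gave -1.82, beside 0.057 over all 8295 genes, and 7 of 7 lower.

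Members differed in which of the 3 genes led. Ctsk had the most UMIs in 1252 cells, Spp1 in 981 and Gpnmb in 220, and 73 were tied. Between Spp1-led and Ctsk-led members, of 3297 genes compared, 68 had the same sign in every library (2.06%), 21 higher and 47 lower in Spp1-led cells, among them the 3 genes that made the split. Lower in Spp1-led cells were Gstm1, a glutathione transferase gene (500 against 711, median log2 ratio -0.66), S100a1 (-0.49), the fatty acid receptor gene Cd36 (-0.34), Npc1, which moves cholesterol out of lysosomes (-0.28), Lipa (-0.25) and Psap, the saposin precursor gene (-0.24). Higher were Cpne5 (0.49), the cadherin gene Cdh1 (0.45) and the complement receptor gene C5ar1 (0.31). Larger differences that kept their sign in 10 of 11 libraries included Fabp1, a fatty acid-binding protein gene (0.90), and the replication genes Mcm2 (1.01) and Mcm5 (1.10). Pf4 (1.02) and Ccl2 (0.72) were others, and all of these were higher in Spp1-led cells. They were chosen after their values were seen, and the share of all genes that met this looser rule was not computed. Proliferation genes did not share a direction, nor did the mitotic genes among them: medians ran from Ccnb2 (-0.69) and Ube2c (-0.47) to Ccnb1 (0.23) and Top2a (0.44).

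A small set of members held few alveolar marker UMIs, and 88 members held none. The 139 cells with an alveolar marker sum under 5, chosen after their values were seen and so not tested, came mainly from the libraries that stood apart: 46 from p21Het replicate 2 and 57 from p21mTertCD replicate 1 (74.1%), libraries that held 49.1% of all members. They were 7.08% and 9.66% of the members of these libraries and 0 to 7.75% in the other 9. Their median was 13 UMIs of Spp1, 12 of Gpnmb and 4 of Ctsk, against 11, 7 and 17 in the other 2387 members. As levels, Ctsk stood at 1310 CPM against 1820 in p21Het replicate 2 and at 738 against 2098 in p21mTertCD replicate 1. Doublet scores marked 36.0% of them and 10.2% of the others, and the part of doublets was not tested.

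**Figure D2:**
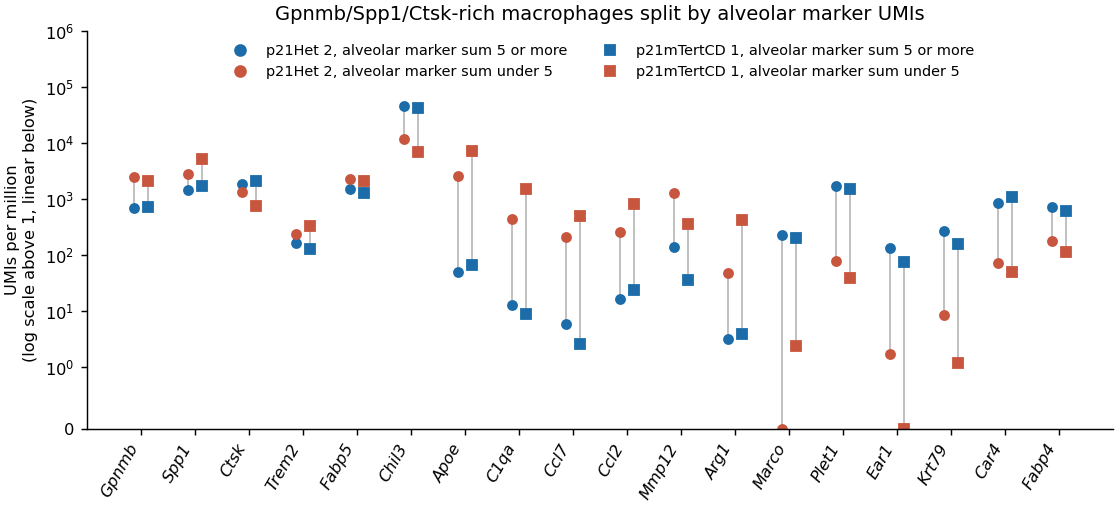
Levels in CPM (vertical axis, log scale above 1) in members with an alveolar marker sum under 5 (red) and 5 or more (blue) in p21Het replicate 2 (circles, 46 cells under 5) and p21mTertCD replicate 1 (squares, 57 cells under 5). Apoe, C1qa, Ccl7 and Arg1 were higher and Marco, Plet1 and Krt79 lower in the red cells of both libraries.

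The other 9 libraries held 0 to 11 such cells each, too few to compare, so the levels that follow rest on these 2 libraries alone. In both libraries 56 of 3410 genes were at least 4-fold higher in the cells with few alveolar markers (1.64%) and 48 at least 4-fold lower (1.41%). Apoe stood at 2583 CPM against 48.4 in p21Het replicate 2 and at 7272 against 66.6 in p21mTertCD replicate 1. C1qa (442 against 12.5 and 1489 against 8.63), the monocyte-attracting chemokine genes Ccl8, Ccl7, Ccl2 and Ccl12, the arginase gene Arg1 (46.6 against 3.12 and 424 against 3.87), and the matrix metalloprotease genes Mmp14 and Mmp12 were also higher. Among the lower genes, Marco (0 against 227 and 2.34 against 203), Plet1, Krt79 and Ear1 belong to the sum that made the split, while Car4 and Fabp4 do not. In the cells with few alveolar markers, Plet1 (78.2 and 38.5) and Car4 (71.5 and 49.1) still lay above their means in C1q-rich cells (2.44 and 3.94). Krt79 (8.32 and 1.17) also did (0.320). Marco and Ear1 (1.66 and 0) did so in 1 library each (means 0.681 and 0.699). C1q-rich cells were chosen by an alveolar marker sum under 2 and these members by a sum under 5. For Plet1, Krt79, Marco and Ear1, which are in the sum, the order thus follows in part from these limits, and no conclusion is drawn from it. Car4 is outside the sum. Within the 139, 30 cells held at least 10 C1q UMIs and 84 held none.

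The levels of the rule's genes differed between libraries of the same group. Ctsk stood at 597 CPM in the WT library, at 1580, 1792 and 596 in p21Het replicates 1 to 3, at 1290, 429, 1124, 995 and 673 in p21mTert replicates 1 to 5, and at 2003 and 598 in p21mTertCD replicates 1 and 2. Gpnmb, in the same order, stood at 337; 564, 783 and 216; 574, 126, 508, 401 and 261; and 810 and 223. Both genes were high in p21Het replicates 1 and 2, p21mTert replicates 1, 3 and 4 and p21mTertCD replicate 1, and lower in the other 5 libraries, which include every group.

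The same 6 libraries held the 6 highest levels of Syngr1, a synaptogyrin gene of the lipid-associated programme, and the 6 lowest of Ear1, an eosinophil-type ribonuclease gene of alveolar macrophages. Syngr1 ranged from 57.2 to 165 CPM in them and from 0.416 to 12 in the other 5. Ear1 ranged from 67.7 to 399 in them and from 565 to 939 in the other 5. This order was seen after the values were known and was not tested; 3 of the 6 libraries with high Ctsk were p21mTert, 2 p21Het and 1 p21mTertCD.

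The first comparison between genotypes asked whether the number of these macrophages differed. They made up 1.23% of filtered cells in the WT library, 3.38%, 7.62% and 2.40% in p21Het replicates 1 to 3, 3.33%, 1.38%, 2.25%, 1.80% and 2.63% in p21mTert replicates 1 to 5, and 9.0% and 3.18% in p21mTertCD. The WT library was the lowest of the 11, and the ranges of p21Het, p21mTert and p21mTertCD overlapped each other. Means were 4.47% ± 2.78 (SD, n = 3) in p21Het, 2.28% ± 0.75 (n = 5) in p21mTert and 6.09% ± 4.11 (n = 2) in p21mTertCD.

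**Figure D3:**
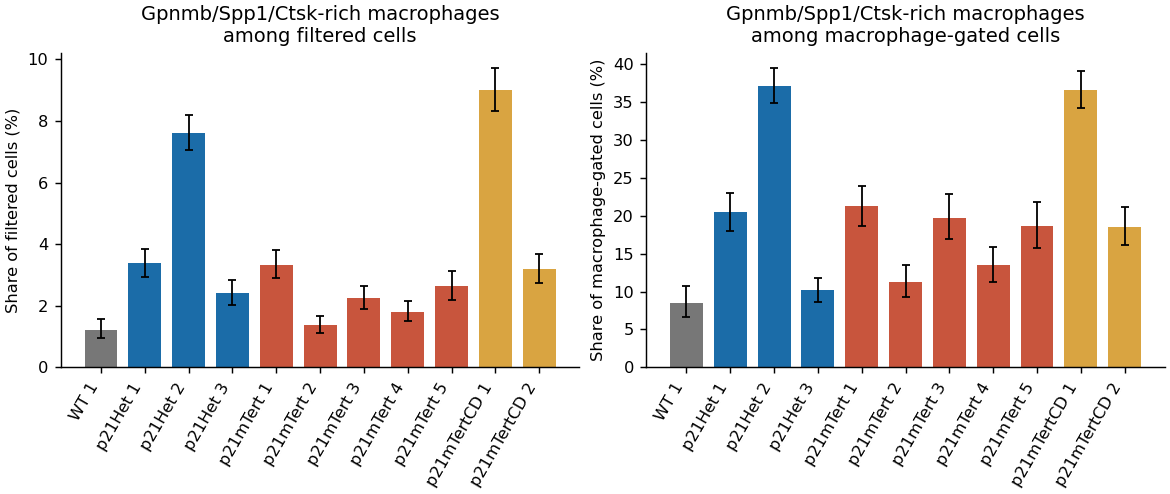
Share of the members among filtered cells (left) and among macrophage-gated cells (right), in percent, per library, with exact Clopper-Pearson 95% binomial intervals that cover counting error only. p21Het replicate 2 (7.62% of filtered cells) and p21mTertCD replicate 1 (9.0%) stand above the other 9 libraries, which lie between 1.23% and 3.38%.

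None of these differences passed the test. The share of filtered cells was 2.19 percentage points lower in p21mTert than in p21Het by the group means (difference -2.19; two-sided exact permutation p = 0.0714, smallest possible 0.0179; adjusted p = 0.714 over the 15 share tests). The difference of p21mTert from p21mTertCD was -3.81 points (exact permutation p = 0.0952, smallest possible 0.0476, adjusted p = 0.714), and that of p21mTertCD from p21Het was 1.62 points (exact permutation p = 0.6, smallest possible 0.1, adjusted p = 0.964). Without p21Het replicate 2 and p21mTertCD replicate 1 the 3 differences were -0.61, -0.90 and 0.29 points. Among the later libraries alone they were -3.00, -4.07 and 1.07 points. The first deposit held 1 library of p21Het and 1 of p21mTert, at 3.38% and 3.33%. The limit of 30000 UMIs left out 14, 61 and 34 cells that met the rest of the rule in p21Het replicates 1 to 3. In p21mTert replicates 1 to 5 it left out 27, 51, 59, 91 and 57. Beside the members this was a larger part in p21mTert replicates 2 to 5 than in any p21Het library. With no upper limit the share stayed lower in p21mTert than in p21Het.

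Shares of macrophage-gated cells gave the same picture: 8.51% in the WT library, 20.4%, 37.2% and 10.2% in the p21Het libraries, 21.3%, 11.3%, 19.8%, 13.5% and 18.6% in p21mTert, and 36.7% and 18.6% among p21mTertCD libraries. The differences were -5.71 points for p21mTert against p21Het, -10.7 against p21mTertCD and 5.03 for p21mTertCD against p21Het, with exact permutation p of 0.5, 0.19 and 0.8. The first changed sign without the libraries that stood apart (1.59 points). The second was -1.69 points without p21mTertCD replicate 1 and -19.8 without p21mTertCD replicate 2. The third was -4.01 and 14.1 points without these, -1.19 without p21Het replicate 3 and 12.3 without p21Het replicate 2. The shares of Ctsk-led, Spp1-led and Gpnmb-led cells among members overlapped between p21Het, p21mTert and p21mTertCD, with exact permutation p from 0.6 to 0.964. The lead gene is read from the same UMIs that chose the members, so no conclusion is drawn from these tests. They are part of the 15 share tests over which p was adjusted.

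Within the members, UMIs were summed per library and 10565 genes were tested between groups with edgeR's quasi-likelihood test, adjusted over all of them (Benjamini-Hochberg, called under 0.05). Tert, which encodes the telomerase protein the mTert allele is named for, gave 0 UMIs in the WT library, 0, 5 and 0 in the p21Het libraries, 7, 12, 6, 12 and 6 in p21mTert, and 28 and 16 in p21mTertCD. As levels these were 0, 0.461 and 0 CPM in p21Het, 1.87 to 5.12 in p21mTert, and 2.29 and 4.19 in p21mTertCD, so that both groups labelled with an mTert allele lay above p21Het without overlap. Such separation was seen for 3.45% of all genes between p21mTert and p21Het and for 12.1% between p21mTertCD and p21Het. The counts of 0 allow up to 2.81, 0.911 and 1.02 CPM in WT and p21Het replicates 1 and 3. The fitted log2 difference of p21mTert from p21Het was 3.45 (SE 0.79), which was not called (adjusted p = 0.837). All 5 p21Het UMIs came from replicate 2, and without that library the fitted value was 6.69, set against libraries at 0. Counts of Tert from its own locus and from the mTert allele cannot be told apart here.

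Cdkn1a, the gene of p21, was not called in any comparison. It stood at 313 CPM in the WT library, at 395, 368 and 479 in the p21Het libraries, at 278, 287, 375, 390 and 295 in p21mTert, and at 345 and 321 in p21mTertCD. The log2 difference of p21mTert from p21Het was -0.30 (SE 0.15, edgeR adjusted p = 0.837), and the groups overlapped.

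**Figure D4:**
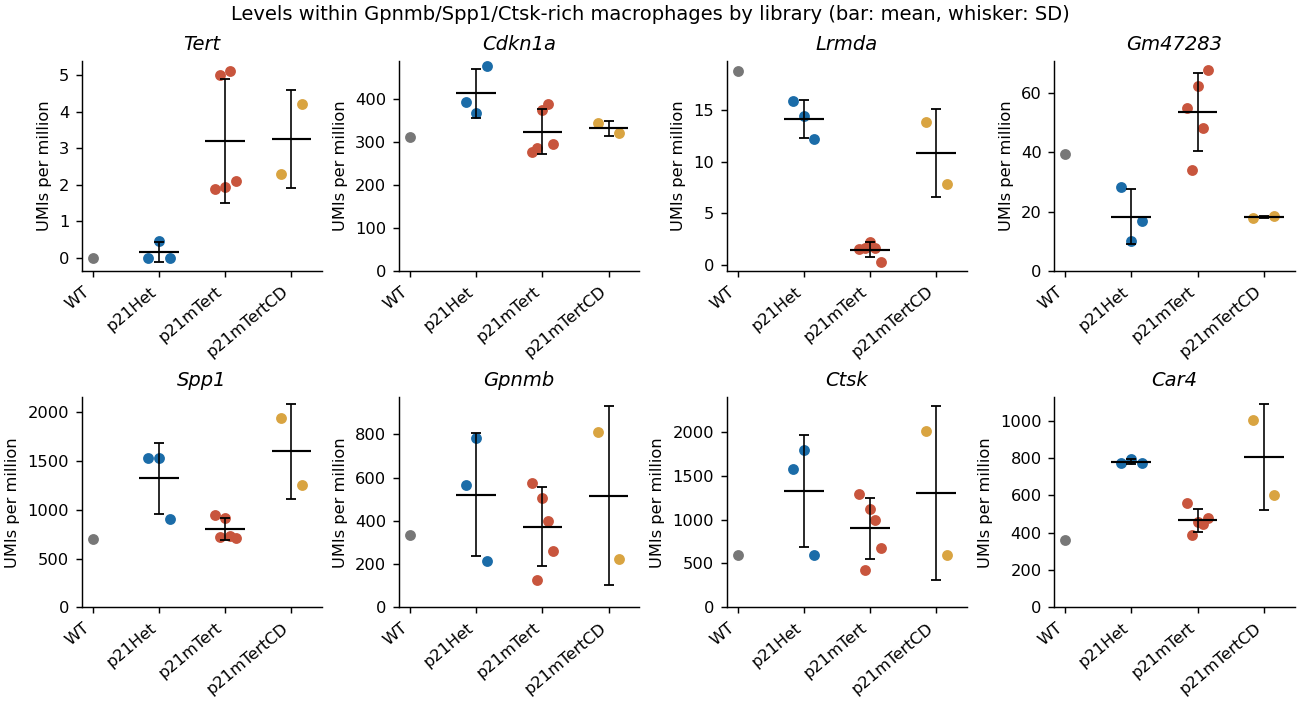
Levels of 8 genes within the members, in CPM (vertical axes), per library (points) with group means (bars) and SD (whiskers; none for the single WT library). Lrmda lies between 0.351 and 2.25 in the 5 p21mTert libraries and between 7.86 and 18.8 in the other 6, while Gpnmb and Ctsk spread widely within p21Het, p21mTert and p21mTertCD.

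Lrmda was the 1 gene called between p21mTert and p21Het, 0.00947% of those tested. The gene, named for its leucine-rich repeats and known from melanocyte differentiation, is annotated on the plus strand at chr14:22019712-23056085 (GRCm38). It fell from 15.8, 14.4 and 12.2 CPM in p21Het to 1.60, 1.66, 2.25, 1.71 and 0.351 in p21mTert, a log2 difference of -3.16 (SE 0.37, adjusted p = 0.0358). The WT library had 18.8 and p21mTertCD 13.8 and 7.86, so the p21mTert libraries were below all others without overlap. The counts were small, 52, 156 and 36 UMIs in p21Het and 6, 4, 7, 4 and 1 in p21mTert. The adjusted p exceeded 0.05 without any 1 of p21Het replicates 1, 2 or 3 (0.109, 0.286 and 0.0703) or p21mTert replicates 1, 2, 3 or 4 (0.237, 0.162, 0.0856 and 0.215), without p21Het replicate 2 and p21mTertCD replicate 1 together (0.132), with a term for the deposit (0.118), in the later deposit alone (0.373), with the gate at 20 UMIs (0.196) or at 10 per 10000 UMIs (0.288), and with the replicate block (1.00). The call held in 10 of 23 alternatives, and the log2 difference lay between -3.40 and -2.64 over all 23.

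Lrmda was also lower in p21mTert outside these macrophages, by its levels alone. In filtered cells outside the members it stood at 4.76 to 6.70 CPM in p21Het, 0.520 to 1.16 in p21mTert and 4.79 and 1.63 in p21mTertCD. In alveolar-marker cells below the gate the levels were 6.49 to 19.4 in p21Het and 0 to 3.17 in p21mTert. The test of whether its difference differed between members and those cells gave a log2 value of 0.46 (SE 0.77, edgeR adjusted p = 0.955).

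DESeq2 on the same counts called 6 genes between p21mTert and p21Het: Lrmda, Gm42031, Wdfy1, Gm47283, Wwc2 and Osbpl3. The last 5 were not called by edgeR (adjusted p from 0.236 to 0.750). Gm42031, an unnamed gene model, stood at 0, 2.86 and 6.77 CPM in p21Het, at 46.6, 39.1, 27.9, 43.1 and 18.3 in p21mTert and at 2.70 and 2.88 in p21mTertCD (edgeR log2 difference from p21Het 3.53, SE 0.58). Wdfy1, which encodes an endosomal adaptor, stood at 12.5, 7.09 and 13.9 in p21Het, at 29.1 to 43.5 in p21mTert, and at 22.9 and 9.17 in p21mTertCD (1.82, SE 0.30). In filtered cells outside the members both genes also separated these groups, Gm42031 with 4.01 to 13.6 in p21Het and 34.8 to 87.4 in p21mTert, and Wdfy1 with 16.5 to 25.8 and 42.3 to 46.1. The share of all genes that separated in those cells was not computed. Gm47283, Wwc2 and Osbpl3 overlapped there. Gm47283 had 15.4 to 55.3 in p21Het and 51.5 to 105 in p21mTert. Wwc2 had 31.1 to 46.1 and 31.7 to 50.0, and Osbpl3 15.95 to 28.6 and 20.3 to 24.6. In alveolar-marker cells below the gate Gm47283 did not overlap (12.99 to 28.5 and 47.7 to 79.6), while Wwc2 and Osbpl3 did. In C1q-rich cells Wwc2 did not overlap (27.5 to 43.2 and 9.63 to 26.7), while Gm47283 and Osbpl3 did. Gm42031 and Wdfy1 did not overlap in either of these gates. The share of all genes that separated in these gates was not computed either. Between members and alveolar-marker cells below the gate the differences of Gm47283, Wwc2 and Osbpl3 differed by -0.04 (SE 0.26), 0.25 (SE 0.34) and -0.53 (SE 0.27). Those of Gm42031 and Wdfy1 differed by 1.36 (SE 0.55) and 0.81 (SE 0.32). None was called (edgeR interaction, adjusted p at least 0.901). Within the members Wwc2 had 29.2, 23.9 and 24.4 in p21Het and 10.5 to 15.8 in p21mTert (-0.98, SE 0.17), and Osbpl3, an oxysterol-binding protein gene, had 46.5, 84.1 and 54.5 in p21Het and 17.0 to 36.8 in p21mTert (-1.27, SE 0.26).

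Gm47283, a gene model on chromosome Y, had 28.3, 10.0 and 16.9 CPM in p21Het, 34.1 to 67.8 in p21mTert, 18.1 and 18.6 in p21mTertCD and 39.4 in WT. Car4, which encodes the membrane carbonic anhydrase of alveolar macrophages, was close between the p21Het libraries, at 773, 794 and 773, and lay at 558, 388, 455, 449 and 480.5 in p21mTert, at 1006 and 603 in p21mTertCD and at 359 in WT. Its edgeR log2 difference from p21Het was -0.70 (SE 0.16, adjusted p = 0.837), below p21Het in 5 of 5 libraries. Separation without overlap was seen for 3.45% of all genes in this comparison. Over the 23 alternatives the difference of Car4 lay between -0.80 and -0.29. S100a4, a calcium-binding protein gene, had the opposite sign (1.13, SE 0.31, adjusted p = 0.837), with overlapping groups.

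No gene was called by edgeR between p21mTert and p21mTertCD (0 of 10565, 0.0%; 455 at an unadjusted p under 0.05, 4.31%) or between p21mTertCD and p21Het (0 of 10565, 0.0%; 156, 1.48%). DESeq2 called 3 genes in the first, Lrmda, Gm42031 and Gm47283, and 0 in the second. Lrmda differed by -2.87 (SE 0.39, adjusted p = 0.165 by edgeR) between p21mTert and p21mTertCD. Spp1 stood at 945, 724, 915, 732 and 706 CPM in p21mTert, at 1943 and 1258 in p21mTertCD, at 1534, 1536 and 905 in p21Het and at 704 in WT. Its log2 difference of p21mTert from p21mTertCD was -1.01 (SE 0.24, adjusted p = 0.998), without overlap (as for 6.94% of all genes in that comparison), and from p21Het -0.68 (SE 0.22, adjusted p = 0.837), with overlap. Without p21mTertCD replicate 1 the first was -0.59, and over all 23 alternatives it lay between -1.34 and -0.32. Because at least 10 UMIs of the 3 genes were needed to enter, their lowest levels are cut off in every group. No conclusion is therefore drawn from the tests of Spp1, Gpnmb and Ctsk between groups.

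Between p21mTertCD and p21Het, with 2 against 3 libraries, no gene was called. Among genes averaging at least 50 CPM in either group, those with the smallest p in each direction are given as values. Tert lay below that level and differed by 3.45 (3.08 to 6.69 with 1 library left out). The purinergic receptor gene P2ry13 stood at 69.8 and 38.8 against 29.5, 31.9 and 34.2 CPM (log2 difference 0.86), the proprotein convertase gene Furin at 362 and 330 against 260, 251 and 299 (0.42), and the mannosidase gene Man1a2 at 31.8 and 38.5 against 55.3, 51.6 and 63.6 (-0.64). Herpud1 and Dnajb9, genes of the response to unfolded protein in the endoplasmic reticulum, had differences of -0.54 and -0.49. The rest were Ccl2 (1.00), Clec4e (0.60), 5031439G07Rik (0.28), Ppp1r11 (-0.40) and Hprt (-0.35). Without p21mTertCD replicate 1 the difference was 0.28 for P2ry13 and -0.26 for Herpud1, and Herpud1 was -0.86 without p21mTertCD replicate 2. All adjusted p were 1.00.

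Across lists, no member gene was called in any comparison, and the median log2 difference over all genes between p21mTert and p21Het was -0.0019. The MHC class II list leaned one way: all 7 genes were higher in p21mTert by their estimates, with a median of 0.90, and 5 of 7 had an unadjusted p under 0.05, beside 553 of all genes (5.23%). The summed level of the 7 was 4638 CPM in the WT library, 2149, 1182 and 4077 in the p21Het libraries, 4854, 3367, 3663, 3677 and 6538 in p21mTert, and 1706 and 4803 in p21mTertCD. The lowest 2 values were those of p21Het replicate 2 and p21mTertCD replicate 1, and p21Het replicate 3 lay within the p21mTert range. Without both libraries the median was 0.58, with 1 of 7 at an unadjusted p under 0.05; against p21mTertCD all 7 were higher with a median of 0.45, but 2 of 7 with -0.10 once p21mTertCD replicate 1 was left out.

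**Figure D5:**
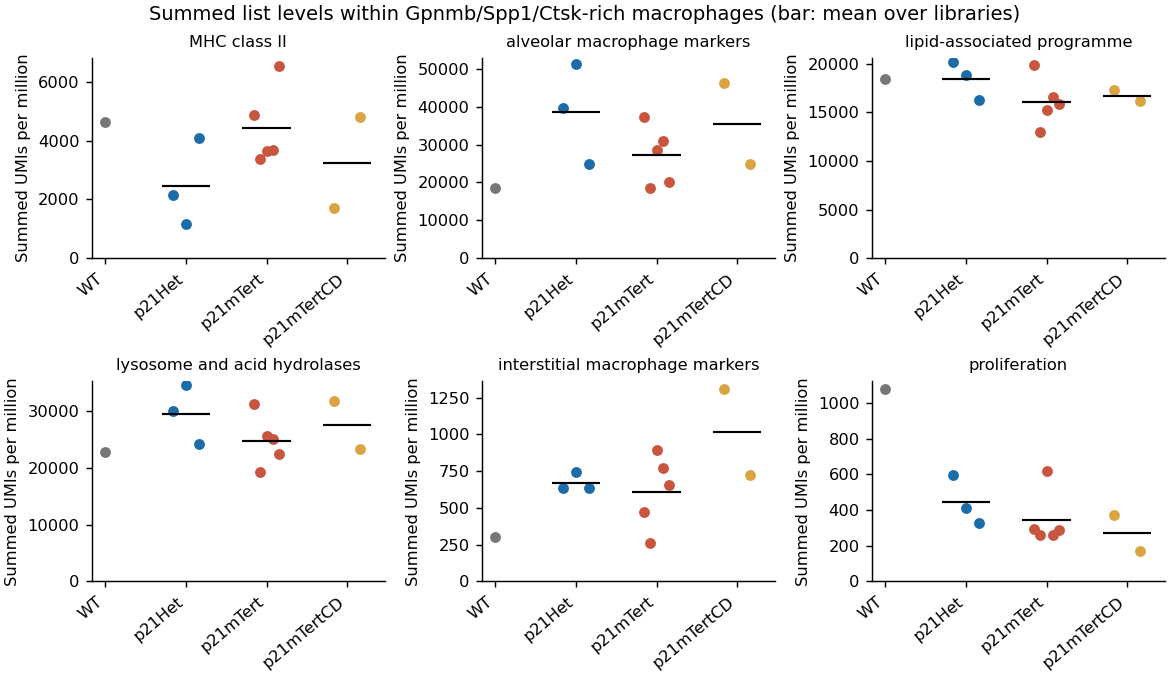
Summed levels of 6 gene lists within the members, in CPM (vertical axes from 0), per library (points) with the mean over libraries (bars). The MHC class II sums of p21Het replicate 2 (1182) and p21mTertCD replicate 1 (1706) are the lowest of the 11 libraries, and the ranges of p21Het and p21mTert overlap in all 6 lists.

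The lipid lists leaned the other way without a called gene. Of 20 genes of the lipid-associated programme tested, 4 were higher and 16 lower in p21mTert than in p21Het (median -0.32), and of 24 genes of lipid uptake and sterol handling 6 were higher and 18 lower (median -0.27). The first list holds Spp1 and Gpnmb, whose low levels the rule cuts off; the other 18 gave 4 higher and 14 lower (median -0.28). Without p21Het replicate 2 and p21mTertCD replicate 1 these 18 gave 7 higher and 11 lower (median -0.0695), and the sterol list 8 higher and 16 lower (median -0.0840). Ch25h stood at 245, 311 and 237 CPM in p21Het and at 242, 98.1, 122, 114 and 115 in p21mTert (-0.91, SE 0.29, adjusted p = 0.837), and Cd36 differed by -0.59. Abca1, the cholesterol exporter, differed by 1.00 in the opposite direction. Lysosomal genes had 7 higher and 25 lower with a median of -0.11 (18 higher and 14 lower without those 2 libraries), and proliferation genes 3 higher and 13 lower with a median of -0.34. For alveolar macrophage markers the counts were 10 higher and 7 lower, with a median of 0.13.

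Neutrophil transcripts were high in 1 p21Het library. S100a9 stood at 1275 CPM in p21Het replicate 3, at 93.6 and 46.4 in the other p21Het libraries, at 7.71 to 109.8 in p21mTert, and at 351 and 192 in p21mTertCD. The summed level of the 8 neutrophil markers was 267 to 2504 in p21Het, 148 to 514 in p21mTert and 1050.2 and 454 in p21mTertCD. The defining marker Ly6g was at most 1.35 and Ngp at most 0.911 in any library. The part of neutrophil RNA in the members' other differences was not tested.

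Whether the members responded differently from alveolar-marker cells below the gate was tested as an interaction over 11168 genes, with the library as a block. No gene was called for p21mTert against p21Het (0.0%; 512 at an unadjusted p under 0.05, 4.58%) or for p21mTertCD against p21Het (0.0%; 296, 2.65%), and 1 was called for p21mTert against p21mTertCD (0.00895%; 913, 8.18%). This was Pigr, the polymeric immunoglobulin receptor gene of epithelium, with a log2 difference of 4.84 (SE 0.52, adjusted p = 0.00478). Members held little of it in every group, 2.60 to 7.0 CPM by group means, whereas alveolar-marker cells below the gate had 580 and 53 in p21mTertCD and 0.881 to 91.8 in p21mTert. Alveolar type II cell markers were also high in those cells (39763 and 7327 in p21mTertCD, 397 to 7547 in p21mTert). With marked doublets left out the adjusted p was 0.530, without p21mTertCD replicate 1 it was 1.00, without p21mTert replicate 1 it was 0.165 and without both p21Het replicate 2 and p21mTertCD replicate 1 it was 0.674. With Plet1 left out of the alveolar marker sum, which also left out those 2 libraries, the sign turned (-2.48, SE 5.63).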

How the data were processed

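Single-cell RNA from dissociated whole lung was measured by 10x 3′ libraries. The deposited values are raw UMI counts per gene and barcode, mapped by the authors to mm10 with Cell Ranger, per the labels; versions given there conflict and none is stated. The members and gene lists were chosen with earlier results of these data known. Members' counts were summed per library and tested with edgeR 4.0.16 (R 4.3.3; filterByExpr, TMM, quasi-likelihood test, Benjamini-Hochberg at 0.05), all groups in 1 fit without covariates. DESeq2 1.42.0 was an alternative. Shares were compared with two-sided exact permutation tests over libraries (scipy 1.17.1). Doublets were ranked by Scrublet (scanpy 1.11.5) and 0.8% per 1000 barcodes were marked, since its own threshold failed in several libraries; they were kept, and left out as an alternative. Named genes were called genes, the genes of the rule, Tert and Cdkn1a, and listed genes. Genes with the smallest p in each direction were also named, among those averaging at least 50 CPM in either group. Others were chosen after their values were seen. Positions are from GENCODE M21 (GRCm38), which matched 30934 of 31053 gene identifiers. On simulated counts for p21mTert against p21Het over 10519 genes, 82% of 100 genes changed 2-fold and 98% of 100 changed 4-fold were recovered, with 16 false calls. For the interaction over 11125 genes these were 14%, 87% and 7. All changed genes averaged at least 10 CPM. Adjustment is milder when many genes change, so these shares do not give the power of the real comparison, where 1 gene was called. Intervals cover counting error only. WT has 1 library and entered no comparison. Some members of the gene lists entered the list counts but are not reported here by name.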

Additional observations from a re-analysis of the deposited data

Results flagged for a closer look

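The Ctsk-led share of members in p21mTert replicate 2 was 31.7%, apart from the other 4 p21mTert libraries (46.0 to 50%). Of 38 groups of values checked in this way 1 stood out, and chance flags about 1 in 20.

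The difference of Pigr between p21mTert and p21mTertCD differed between members and alveolar-marker cells below the gate, by a log2 value of 4.84 (edgeR interaction, adjusted p = 0.00478). It lost the call in 4 alternatives with the same sign and turned to -2.48 in 1, that with Plet1 left out of the gate. The alveolar type II cell markers given beside it in the report were high in the same p21mTertCD cells, and their part was not tested.

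Cells above 30000 UMIs were outside the rule. Of 3155 such cells, 615 met its Gpnmb, Spp1, Ctsk, Lyz2 and Cd68 minimums (19.5%, exact Clopper-Pearson 95% interval 18.1 to 20.9%). A count of 0 would allow 0.0951%. By library they numbered 2 in WT, beside 67 members. They numbered 14, 61 and 34 in p21Het replicates 1 to 3, beside 210, 650 and 141. Replicates 1 to 5 of p21mTert had 27, 51, 59, 91 and 57, beside 207, 104, 142, 113 and 124. Replicates 1 and 2 of p21mTertCD had 164 and 55, beside 590 and 178. The limit thus left out unequal parts of such cells between libraries. Beside the members, the part was larger in p21mTert replicates 2 to 5 than in any p21Het library. That of p21mTert replicate 1 lay between p21Het replicates 2 and 3.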

How the results depend on the processing

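Of 226 alternative values of member shares 191 kept their direction and side of the threshold, as did 1111 of 1188 values of single genes, and 79 of 114 counts of called genes stayed within 1.5 times. Lrmda rests on 1 to 7 UMIs in each p21mTert library, and 2 or 3 libraries in the other groups limit every test. Differences below are in the order p21mTert minus p21Het (A), p21mTert minus p21mTertCD (B) and p21mTertCD minus p21Het (C): percentage points for shares, log2 for genes; the cause of a change was not tested.

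With doublets left out, the Gpnmb-led share A was 0.262, Tert B -0.12, Ctsk C -0.0658 and the interaction called 0 genes for B. With the gate at 20 UMIs, the Gpnmb-led share was 0.534 (A) and 0.0153 (C), Ctsk C -0.0193, and 0 genes were called for A. With 10 UMIs per 10000, the share of filtered cells A was -2.48 (exact permutation p = 0.0357), the Gpnmb-led share 1.84 (A) and 0.264 (C), Cd68 A 0.0141, and 0 genes were called for A. With no upper UMI limit, the share of filtered cells B was -4.30 (exact permutation p = 0.0476), the Ctsk-led, Spp1-led and Gpnmb-led shares A 1.63, -1.39 and 0.447, Cd68 0.15 (A) and 0.0380 (B), and Tert B -0.0293. DESeq2 called 6 (A) and 3 (B) genes, with Tert B -0.00100. Without a filter on low counts edgeR called 8 (A) and 4 (B), the interaction 73, 172 and 35, and Tert B was -0.0380. With RLE size factors Tert B was -0.000478. A term for the deposit, and the later deposit alone, left 0 genes for A, with Cdkn1a B 0.00578 and 0.0206.

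The libraries with the same number in their labels (replicates 2 and 3) were not treated as pairs: their deviations correlated at -0.284, -0.629, -0.256 and 0.374, where values of p21mTertCD mirror each other since it has 2 libraries; the unnumbered libraries were not checked. With the replicate block 0 genes were called for A, and values were: share of filtered cells C -4.44, share of macrophage-gated cells C -18.6, Gpnmb-led share B -0.486, Lyz2 -0.0183 (A), -0.14 (B) and 0.12 (C), Cd68 0.22 (B) and -0.46 (C), Cdkn1a B 0.0160, Ctsk 0.64 (B) and -1.11 (C), Gpnmb 0.64 (B) and -1.24 (C), and Spp1 C -0.12.

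Chosen after seeing the data, the alveolar gate without Plet1, which left 9 libraries and 1 of p21mTertCD, gave 1 interaction gene for A and Pigr B -2.48; the same 9 libraries with Plet1 kept gave 1 for A and Pigr B 4.53. Without p21Het replicate 2 and p21mTertCD replicate 1 together, the share of macrophage-gated cells A was 1.59, the Ctsk-led, Spp1-led and Gpnmb-led shares A 1.90, -1.26 and 0.457, Cd68 0.10, 0.29 and -0.19 (A, B, C), Gpnmb 0.0323, 0.78 and -0.75, Cdkn1a B 0.0693, Ctsk 0.63 (B) and -0.81 (C), Tert B -0.37 and Lyz2 C 0.0213. Keeping only members with alveolar markers left Lrmda called (edgeR adjusted p = 0.0291).

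Leaving out 1 library at a time gave these ranges. The share of filtered cells was -3.22 to -0.61 (A; exact permutation p = 0.0476 without p21Het replicate 3) and -1.29 to 4.53 (C), that of macrophage-gated cells -11.9 to 1.59 (A), -19.8 to -1.69 (B) and -4.01 to 14.1 (C). The Ctsk-led share was -8.12 to 1.90 (A), -10.8 to 15.6 (B) and -18.2 to 8.17 (C), the Spp1-led share -1.26 to 7.44, -20.04 to 11.7 and -8.62 to 23.2, and the Gpnmb-led share -1.30 to 1.13, -2.08 to 4.55 and -4.68 to 1.95. Called genes numbered 0 to 2 for A, and interaction genes 0 to 1, 0 to 11 and 0 to 4. Cd68 was -0.32 to 0.11 (A), -0.49 to 0.29 (B) and -0.41 to 0.38 (C), Gpnmb -0.85 to 0.0328, -1.19 to 0.78 and -1.25 to 0.72, Ctsk -1.23 to 0.63 (B) and -1.16 to 0.70 (C), Cdkn1a B -0.15 to 0.0689, Tert B -0.37 to 0.38, Lyz2 C -0.32 to 0.0771 and Spp1 -1.34 to -0.59 (B) and -0.0840 to 0.66 (C).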

Other observations

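Erythroid transcripts, 6 genes of haemoglobin and red cells, differed widely between libraries within the members. Their sum was 21.6 CPM in the WT library, 29.2, 1217 and 844 in the p21Het libraries, 117, 1669, 632, 65.3 and 475 in p21mTert, and 246 and 32.2 in p21mTertCD. Proliferation genes summed to 1078 in the 67 WT members and to 171 to 619 in the other 10 libraries. Between p21mTertCD and p21Het all 16 proliferation genes had a negative log2 difference (median -0.50), and 0 were called by edgeR or had an unadjusted p under 0.05. Without p21Het replicate 2 and p21mTertCD replicate 1 the median was -1.51; p21mTertCD was then its replicate 2 alone, the library with the lowest proliferation sum.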
